A study of Mus musculus with 8 samples.

Results

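The mRNA levels of 54 genes of mitosis, among them the transcription factor gene Foxm1 and known targets of its protein, were examined in the lungs of mouse fetuses with and without tracheal occlusion (TO). The 54 were given as a list of symbols. Each matched 1 of the 55385 gene IDs counted in these lungs, and none was missing. All fetuses were C57BL/6 and of age E18.5 at collection. Tying of the trachea in the TO group was done at E16.5 with a suture passed through the uterine wall, which also took in a carotid artery and a jugular vein, and dams received progesterone at E17.5. Whether control fetuses had any procedure is not given in the sources used here. RNA came from the entire lung, 4 control and 4 TO, so a lower level of these mRNAs can mean fewer dividing cells or less mRNA in each, and these cannot be told apart. The question was whether the mitotic program of the lung differed after TO.

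A cell that is about to divide builds up mitotic proteins in G2 phase from genes that are silent at rest. Their promoters are held off by the DREAM complex. They are then switched on by the MuvB core of that complex together with B-MYB, the product of Mybl2, and afterwards FOXM1. MuvB sits on a short element near the start site called CHR, usually TTTGAA, and the factor NF-Y sits on CCAAT boxes upstream. The products condense the chromosomes, build the spindle, hold the cell until every kinetochore is attached and then divide the cell. In the fetal lung near birth, division is slowing while airspaces form. FOXM1 is known to be needed for normal lung growth.

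Promoters of 46 of the 54 genes were in the RefSeq table of GRCm38.p6, in 48 windows that run from 250 bases before the transcription start to 50 after. Kif20a, Ccna2, Incenp, Aurkb, Pbk, Tpx2, Cdc25c and Foxm1 were not in the table. TTTGAA, searched on both strands, was present in 36 of the 48 windows (75.0%) and in 17.9% of all 32851 windows. CCAAT, on both strands, was present in 77.1% of the windows of the 54 genes and in 37.4% of all windows. In the shorter stretch from 100 bases before to 50 after the start, 68.8% held TTTGAA against 8.01% of all, and 52.1% held both TTTGAA and CCAAT against 1.93% of all. The forkhead sequence GTAAACA stood in 4.17% of the windows against 3.65% of all, and its shorter form AAACA in 50% against 50.5%. The E2F core GCGC, which is its own reverse complement, was present in 89.6% against 47.1%, and the CHR variant TTCGAA in 6.25% against 1.56%. A match is a stretch of letters and no measure of binding, and the absence of one in this window says nothing of the factor.

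The windows of 6 genes are shown because they are those of leading mitotic genes with a TTTGAA near the start, so that the shared layout of CCAAT boxes and CHR can be read. Each runs 5′ to 3′ on the strand of the gene, from 120 bases before the start to 50 after it, and capitals mark the CHR hexamer, its variant and the CCAAT box, on either strand.
Ccnb2, chr9:70421505-70421674, minus strand: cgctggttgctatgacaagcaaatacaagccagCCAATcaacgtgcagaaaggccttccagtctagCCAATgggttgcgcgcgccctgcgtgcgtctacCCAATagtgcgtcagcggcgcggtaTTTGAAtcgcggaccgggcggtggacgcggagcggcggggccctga
Cdk1, chr10:69352863-69353032, minus strand: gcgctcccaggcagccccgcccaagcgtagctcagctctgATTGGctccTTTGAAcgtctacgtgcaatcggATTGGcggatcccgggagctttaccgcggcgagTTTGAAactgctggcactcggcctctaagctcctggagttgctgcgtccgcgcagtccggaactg
Plk1, chr7:122159315-122159484, plus strand: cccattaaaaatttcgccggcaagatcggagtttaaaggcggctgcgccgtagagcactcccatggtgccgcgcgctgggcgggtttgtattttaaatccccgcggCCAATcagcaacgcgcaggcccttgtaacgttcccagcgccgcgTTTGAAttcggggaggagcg
Cdc20, chr4:118437294-118437463, minus strand: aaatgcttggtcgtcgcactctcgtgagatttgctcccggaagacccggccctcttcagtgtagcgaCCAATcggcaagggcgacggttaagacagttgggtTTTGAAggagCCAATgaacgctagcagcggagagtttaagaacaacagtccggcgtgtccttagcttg
Top2a, chr11:99024140-99024309, minus strand: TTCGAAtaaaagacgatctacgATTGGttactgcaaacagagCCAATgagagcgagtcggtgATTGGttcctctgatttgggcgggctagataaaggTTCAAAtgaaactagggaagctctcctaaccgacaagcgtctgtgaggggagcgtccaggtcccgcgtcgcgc
Aurka, chr2:172370521-172370690, minus strand: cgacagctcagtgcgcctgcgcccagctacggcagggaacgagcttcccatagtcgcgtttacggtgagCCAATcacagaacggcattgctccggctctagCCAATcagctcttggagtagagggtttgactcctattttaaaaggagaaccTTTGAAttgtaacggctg

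Counted from 1 at the first transcribed base, the TTTGAA of Ccnb2 began at position 5, that of Plk1 at 31 and that of Aurka at 33. Cdk1 had one at -71 and one at -15, each downstream of a reversed CCAAT box. Ccnb2 carried 3 CCAAT boxes, at -87, -54 and -21. Over all 48 windows the 25 bases after the start held TTTGAA most often, in 14 windows (29.2%, against 1.31% of all windows), and CCAAT was most frequent 51 to 75 bases before the start (33.3% against 6.99%). The 34 genes with TTTGAA somewhere in a window did not include Mybl2, Birc5, Ccnb1, Pttg1 or Troap.

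**Figure D1:**
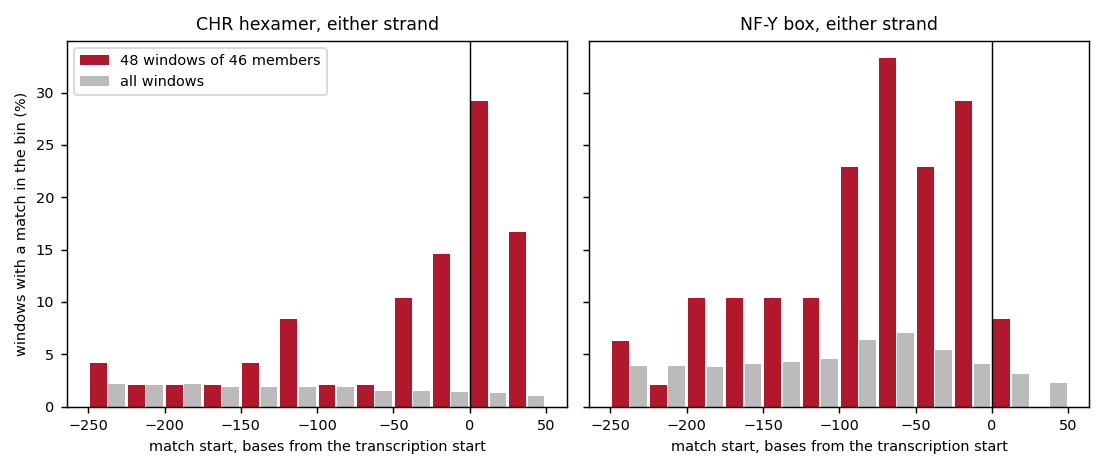
Percent of promoter windows with a match that begins in each 25-base bin (vertical axis) against distance from the transcription start in bases (horizontal axis), for the CHR hexamer TTTGAA on the left and CCAAT on the right. Red bars are the 48 windows of the listed genes and gray bars all 32851 windows, and red bars for the hexamer are highest in the bin just after the start (29.2%) while those for CCAAT are highest upstream (33.3%).

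Read pairs counted on genes numbered 22822261 to 35002061 in 7 lungs and 270078 in TO 1, where 1 read is worth 3.45 CPM (counts per 1000000 read pairs on genes, scaled between lungs). In TO 1 the 54 genes held 1 to 151 reads each, 10 of them under 10. Labeled replicate numbers run from 1 to 4 in each group, and the specimen names also carry a code, 3482 for the lungs numbered 1 and 4, 3573 for those numbered 2 and 3604 for those numbered 3. What the code marks is not stated. Whether the lungs came from separate litters is not given either, so p-values measure the spread between these 8 samples. Lung identity was checked with 5 genes (Nkx2-1, Epcam, Foxf1, Tbx4 and Tcf21), which summed to 1191 to 1491 CPM in controls and 718 to 1274 CPM in TO lungs. Markers of neighboring tissues were uneven. The 8 cardiomyocyte markers summed to 519 to 5370 CPM in controls and 2411 to 7705 CPM in TO lungs, and the 8 skeletal muscle markers to 23.9 to 175 CPM and 152 to 2836 CPM. In both lists TO 1 was highest. The 8 thymocyte markers summed to 276 CPM in TO 1 and to 0.504 to 17.1 CPM elsewhere.

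No member passed the test between TO and control at an adjusted p under 0.1 (edgeR, quasi-likelihood). The median log2 fold change (TO against control) was -0.34 over the 54 genes and -0.018 over all 22545 genes tested. Of the 54, 52 had a value below 0, the exceptions being Nek2 (0.031 ± 0.36, SE) and Spc25 (0.021 ± 0.43), and 53.2% of all genes did. In all 54 genes the 4 TO lungs overlapped the 4 control lungs in CPM, where 2.01% of all genes showed no overlap. Over all genes edgeR called 0 (0.0%) and DESeq2 called 7 (0.031%), none of them among the 54. At an unadjusted p under 0.05 edgeR and DESeq2 each had 1 of the 54, Troap, against 530 of all genes by edgeR (2.35%) and 367 by DESeq2. A further tool, limma-voom, had 0 of the 54 against 830 of all genes. With the replicate number as a block, edgeR called 3 genes (0.0133%) and none of the 54, whose median was -0.23 with 48 below 0. At an unadjusted p under 0.05 this fit had 11 of the 54, all lower in TO, against 4.4% of all genes, and a block by specimen code had 13 of the 54 against 5.11%.

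In each group 1 lung was far below the others. The mean log2 CPM of the 54 genes was 6.13 in control 1, 5.78 in control 2, 4.31 in control 3 and 5.89 in control 4. It was 5.92 in TO 1, 5.14 in TO 2, 4.22 in TO 3 and 5.89 in TO 4. Control 3 and TO 3, the lungs of specimen code 3604, were thus the low ones of their groups, TO 2 stood between, and the other 5 lay close together. Control 3 was the lowest control for 53 of the 54 genes and for 35.8% of all genes. Among the 7 lungs other than TO 1, control 3 and TO 3 were the lowest for 53 of 54 genes, as they were for 13.3% of all genes. The exception was Pttg1, chosen for mention after its values were seen. TO 2 stood below controls 1, 2 and 4 and TO 4 but above both code 3604 lungs for 51 of 54, and for 4.84% of all genes. TO 4 lay within the range of controls 1, 2 and 4 for 38 of 54, and for 49.9% of all genes. On the log2 scale, control 3 was below the median of the other controls by a median of -1.63 over the genes, and TO 3 stood at -1.66 from the median of the other TO lungs. The highest of the 7 lungs exceeded the lowest by a median of 4.27-fold, from 1.32-fold for Pttg1 to 10.6-fold for Pbk.

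**Figure D2:**
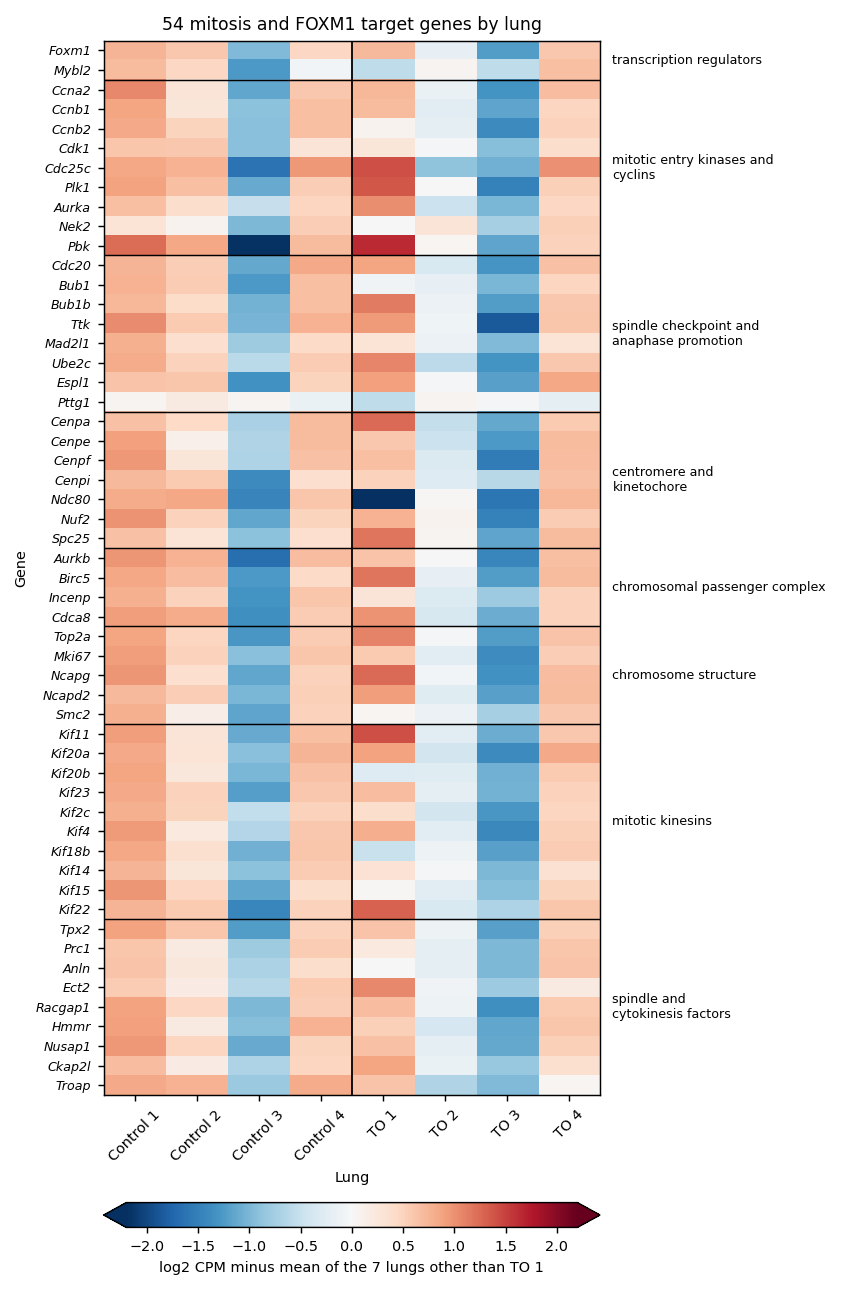
Heat map of the 54 genes (rows, by role) in 8 lungs (columns), colored by log2 CPM minus the mean of the 7 lungs other than TO 1, with colors cut at ±2.2 (Ndc80 in TO 1, a single read, lies beyond). The columns of control 3 and TO 3 are blue in 53 of 54 rows, Pttg1 being the exception, and TO 2 is paler than either.

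Foxm1 (chr6:128362967-128376146, GRCm38) encodes the forkhead factor of G2 and mitosis. It stood at 77.9, 69.3, 23.6 and 63.4 CPM in controls 1 to 4 and at 75.9, 40.6, 19.6 and 69.9 CPM in TO 1 to 4. Its control mean was 58.6 ± 24.0 CPM (SD, n = 4) and its TO mean 51.5 ± 26.3 CPM. The groups overlapped over most of their range, and the log2 fold change was -0.31 ± 0.42 (SE, edgeR adjusted p = 1.0). Mybl2 (chr2:163054687-163084688) encodes B-MYB. It read 24.8, 21.1, 6.39 and 14.7 CPM in controls and 10.4, 15.9, 10.4 and 24.2 CPM in TO lungs, with 3 reads in TO 1. Its log2 fold change of -0.040 ± 0.40 took either sign with the processing.

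Mitotic entry is driven by CDK1 with cyclins A and B and by the kinases PLK1 and Aurora A. Cdk1 stood at 105, 103, 36.4 and 83.7 CPM in controls and 82.8, 66.8, 36.0 and 90.1 CPM in TO lungs, a log2 fold change of -0.30 ± 0.34. Control 3 and TO 3 were nearly level and well below the other lungs. Ccna2, cyclin A2, stood at 121, 71.4, 26.4 and 87.8 CPM against 96.6, 52.9, 23.5 and 93.9 CPM. Ccnb2, cyclin B2, had the largest fold change of the 9 entry genes at -0.54 ± 0.42, from 70.1, 55.1, 20.8 and 62.3 CPM in controls to 41.4, 34.3, 14.9 and 55.7 CPM in TO lungs. The median of the 9 was -0.33, with 8 below 0.

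The spindle checkpoint holds anaphase back until kinetochores are attached, and CDC20 and UBE2C then drive the anaphase-promoting complex. All 8 genes of this group had values below 0, with a median of -0.37. Bub1b, the checkpoint kinase-like BUBR1, stood at 96.4, 77.0, 28.2 and 91.8 CPM in controls and 128, 52.9, 24.7 and 87.9 CPM in TO lungs. Its group means of 73.4 and 73.3 CPM were the same within their SDs of 31.2 and 44.5. The TO mean is raised by the shallow TO 1, the highest of all lungs, from 37 reads. Ube2c stood at 98.6, 79.5, 36.8 and 82.0 CPM against 117, 37.5, 22.4 and 84.5 CPM, and 22.8% of its exon length overlaps Tnnc2, a troponin gene of skeletal muscle, where reads are ambiguous and not counted. Ttk, the kinase MPS1, had the largest fold change here at -0.53 ± 0.53, with 33.5, 24.2, 7.97 and 27.5 CPM in controls and 31.1, 15.2, 4.50 and 24.7 CPM in TO lungs. Pttg1, which encodes securin, did not share the pattern. It read 21.3, 23.4, 21.1 and 18.3 CPM in controls and 13.8, 21.2, 19.9 and 17.7 CPM in TO lungs, with 4 reads in TO 1, so the code 3604 lungs were within the range of the rest.

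At the centromere and kinetochore, where microtubules attach, 6 of 7 genes had values below 0 and the median was -0.34. Cenpf, a large kinetochore protein, read 176, 109, 56.8 and 143 CPM in controls and 145, 73.0, 31.4 and 146 CPM in TO lungs. Cenpe, a kinetochore motor, read 128, 74.2, 43.3 and 111 CPM against 104, 49.7, 28.6 and 112 CPM. Both were lowest in TO 3, next lowest in control 3. Ndc80, part of the microtubule-binding complex, read 37.3, 38.2, 7.80 and 32.6 CPM in controls and 3.45, 21.7, 7.10 and 35.4 CPM in TO lungs, and its log2 fold change of -0.55 ± 0.55 includes a lone read in TO 1.

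The chromosomal passenger complex carries Aurora B along the chromosomes and corrects wrong attachments. Its 4 genes had a median of -0.40, all below 0. Incenp, the scaffold, read 108, 89.1, 25 and 94.9 CPM in controls and 75.9, 51.0, 36.0 and 88.5 CPM in TO lungs. Birc5, survivin, read 60.2, 53.9, 14.0 and 45.2 CPM against 75.9, 29.8, 14.4 and 54.6 CPM. Cdca8, borealin, had the largest fold change of the 4, at -0.45 ± 0.49, with 59.4, 55.2, 12.4 and 46.3 CPM in controls and 62.1, 24.8, 14.7 and 44.6 CPM in TO lungs. For Birc5, Incenp and Cdca8, control 3 was below TO 3.

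As a group, chromosome structure genes had the highest mean log2 CPM in each lung. This did not hold for each gene, as Ncapg, at 5.68 CPM per kilobase of exon, lay below the median of 9.71 over the 54. Per kilobase of exon, Mki67 (40.5 CPM per kb over the 8 lungs) and Top2a (34.6) were highest of the 54, and Cdc25c was lowest (2.26). Mki67 (chr7:135689784-135716361) encodes Ki-67, which coats mitotic chromosomes and is the usual marker of cycling cells. It read 644, 484, 180 and 523 CPM in controls and 511, 287, 131 and 499 CPM in TO lungs, or 458 ± 197 against 357 ± 182 CPM (SD, n = 4), with a log2 fold change of -0.39 ± 0.43 (edgeR adjusted p = 1.0). Top2a (chr11:98992943-99024189), the topoisomerase that untangles sister chromatids, read 449, 340, 101 and 363 CPM in controls and 521, 239, 105 and 378 CPM in TO lungs. Its means of 313 and 311 CPM differed by far less than their SDs of 149 and 179. Here too TO 1 was the highest of all lungs, from 151 reads, and raised the TO mean. The 5 genes of the group had a median of -0.17.

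The 10 mitotic kinesins, the motors that build and elongate the spindle, had values from -0.54 to -0.10 with a median of -0.39. Kif11, which pushes the spindle poles apart, read 109, 70.5, 26.7 and 92.1 CPM in controls and 155, 48.6, 27.3 and 87.0 CPM in TO lungs, and its log2 fold change of -0.12 ± 0.50 took either sign with the processing. Kif23, a motor of the central spindle, read 119, 95.6, 29.0 and 101 CPM against 107, 58.3, 32.5 and 94.8 CPM. Kif2c, which takes microtubule ends apart at the centromere, was furthest from 0 at -0.54 ± 0.38, with 49.9, 40.8, 19.9 and 41.3 CPM in controls and 38.0, 21.9, 12 and 40.3 CPM in TO lungs.

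Of the 9 spindle and cytokinesis genes all had values below 0, with a median of -0.32. Tpx2, which activates Aurora A on the spindle, read 145, 119, 33.4 and 112 CPM in controls and 121, 72.7, 34.4 and 113 CPM in TO lungs. Racgap1, which with KIF23 forms centralspindlin for the cleavage furrow, read 155, 115, 42.7 and 123 CPM against 135, 78.0, 33.2 and 125 CPM. Troap (chr15:99074575-99083409) encodes trophinin-associated protein, also called tastin, which is needed for spindle assembly. It read 23.9, 22.8, 7.60 and 23.7 CPM in controls and 20.7, 8.51, 6.90 and 13.8 CPM in TO lungs, with 6 reads in TO 1. It had the largest log2 fold change of the 54 in size, -0.90 ± 0.40 (edgeR unadjusted p = 0.044, adjusted p = 1.0). All 3 deeply sequenced TO lungs were below controls 1, 2 and 4, and control 3 was below 2 of the 3.

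**Figure D3:**
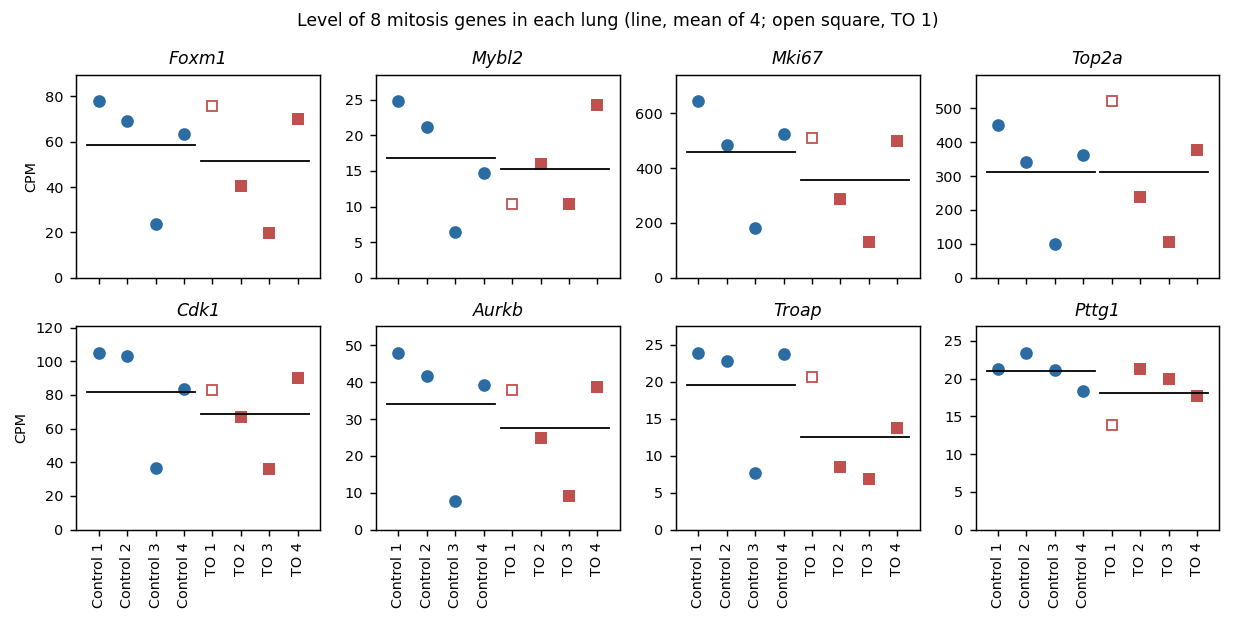
CPM (vertical axes, from 0) of 8 of the genes in controls 1 to 4 (blue circles) and TO 1 to 4 (red squares, open for the shallow TO 1), with a line at the mean of each group. Except for Pttg1, each gene is low in control 3 as well as in TO 3, and Troap is the one in which TO 4 (13.8 CPM) also stands well under controls 1, 2 and 4 (22.8 to 23.9 CPM).

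The size of the difference depended on which lungs were compared. The figures of the study show 6 of the lungs, without control 3 and TO 1, and dropping these leaves TO 3 in the comparison while its control of the same number and code is gone. With those 6 lungs the median log2 fold change of the 54 genes was -0.72, with all 54 below 0, while 50.7% of all 21859 genes tested were below 0. For 10 genes the 3 TO lungs were all below the 3 controls (Plk1, Pbk, Bub1, Mad2l1, Aurkb, Incenp, Cdca8, Kif23, Kif2c and Troap), and so were 5.82% of all genes. Some gaps were narrow, as between TO 4 and the lowest control for Plk1 (36.4 and 37.0 CPM) and Incenp (88.5 and 89.1 CPM). The widest was that of Troap (13.8 and 22.8 CPM). edgeR called none of the 54 (0.0% of all genes), the lowest adjusted p being 0.907. By the same test 10 of the 54 had an unadjusted p under 0.05, against 5.14% of all genes. Mki67 stood at -0.84 ± 0.39, Top2a at -0.67 ± 0.37 and Foxm1 at -0.69 ± 0.37 in this comparison. Troap stood at -1.26 ± 0.26 with an edgeR adjusted p of 0.907. It was the one gene of the 54 called by DESeq2 (-1.25 ± 0.26, adjusted p = 0.00482, among 0.201% of all genes). It was also the one called by edgeR with the replicate number as a block (-1.09 ± 0.24, adjusted p = 0.0186, among 1.0% of all genes). In that block fit control 1 and TO 3 have no partner of their number, so it compares only the lungs numbered 2 and 4.

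Single lungs moved these values. Without TO 3, the 8-lung median of -0.34 became -0.029 with 28 of 54 genes below 0, and without control 1 it became -0.14. Without control 3 it became -0.61 and without TO 4 it became -0.64. With both code 3604 lungs left out, it was -0.28 with 52 genes below 0. Within the 6 lungs, the median was -0.37 without TO 3 and -1.22 without TO 4. That last comparison, of controls 1, 2 and 4 with TO 2 and TO 3 alone, was chosen after the values were seen. In it edgeR called 12 of the 54, all lower in TO (Ube2c, Aurka, Kif2c, Cdc20, Cdca8, Cenpa, Ncapd2, Kif22, Kif23, Troap, Cdc25c and Incenp), and 0.692% of all genes.

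**Figure D4:**
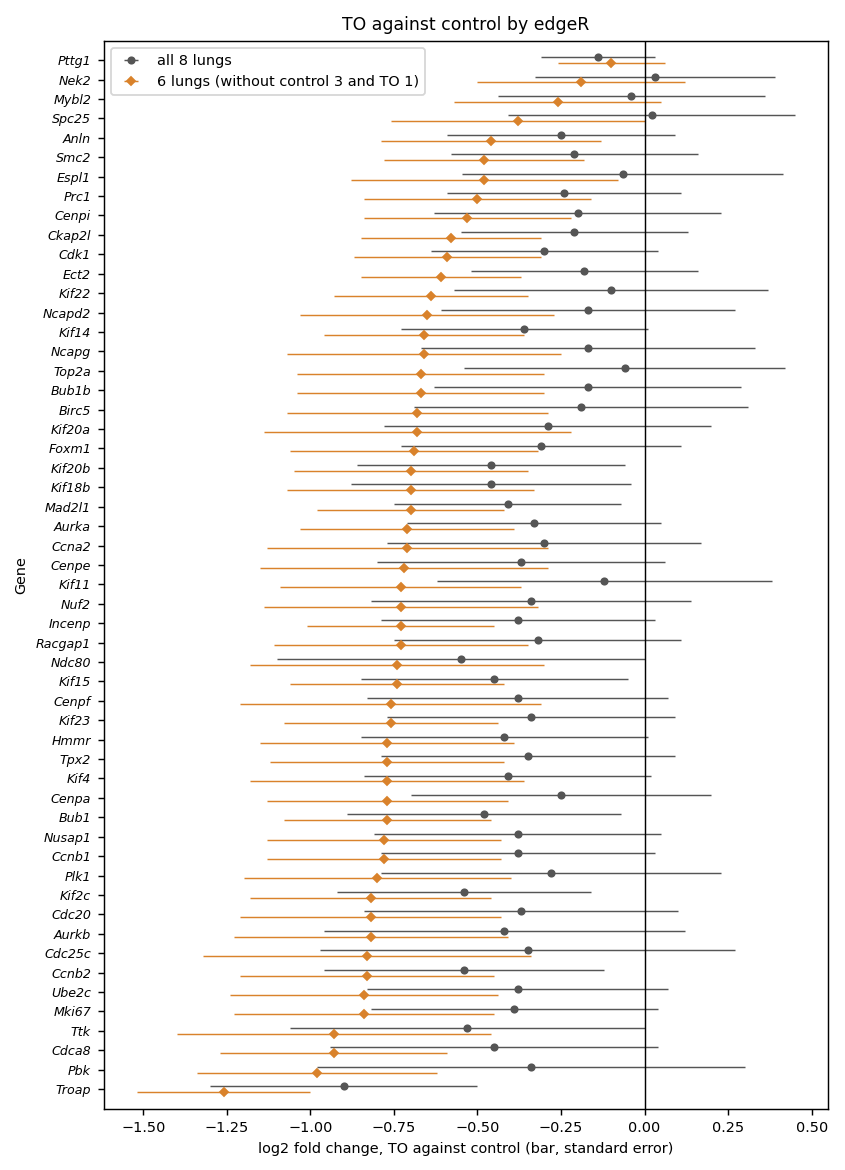
Log2 fold change of TO against control (horizontal axis, bars of 1 standard error) for each of the 54 genes (vertical axis), with all 8 lungs (gray circles) and with 6 lungs (orange diamonds). All diamonds lie below 0, from -1.26 for Troap to -0.10 for Pttg1, while gray circles reach from -0.90 to 0.031 with bars that mostly cross 0.

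TO minus control in log2 CPM was set side by side within a replicate number. Its median over the 54 genes was -0.21 for number 1, -0.66 for number 2, -0.16 for number 3 and -0.00796 for number 4. Over all genes the median was -0.41, -0.00921, 0.022 and -0.00542. In number 1 the values over all genes include the shallow TO 1, where 14476 genes had a read against 24248 in control 1. They are thus no sound baseline for the 54 in that number. The genes lower in TO numbered 34, 53, 36 and 28 of 54 in that order, while 65.5%, 50.8%, 47.1% and 50.7% of all genes were. The difference was thus mostly in the lungs numbered 2, where Nek2 (0.21) was the exception. Ube2c differed there by -1.08, Cdca8 by -1.15 and Troap by -1.42. Within code 3482, the mean of 2 TO lungs minus the mean of 2 controls had a median of -0.12. Each such pair is 1 lung against 1, with no replicate check.

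Other mitotic genes, 46 that are not on the list, were like it in their mean level. The mean log2 CPM was 5.15, 4.85, 3.49 and 4.87 in controls and 4.81, 4.13, 3.36 and 4.92 in TO lungs. Their median log2 fold change was -0.35, 44 were below 0 and none was called. Hjurp, which loads the centromere histone, stood at -0.16 ± 0.19 and Smc4, a condensin subunit, at -0.15 ± 0.14. Single genes departed from the pattern of the means. Hjurp was lowest in TO 2 (199 CPM, against 211 in TO 3), and Smc4 was lower in control 2 (214 CPM) than in control 3 (224 CPM). Cdc25b, chosen for mention after its values were seen, was highest in control 3 (105 CPM). Psrc1, a spindle protein, had the largest value at -0.90 ± 0.34, with 35.7, 26.8, 21 and 24.5 CPM in controls and 6.90, 7.09, 15.2 and 22.8 CPM in TO lungs, and an edgeR unadjusted p of 0.0205.

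The genes for DNA replication are expressed earlier in the cycle than those of mitosis. Their mean log2 CPM was 5.13, 5.06, 3.23 and 4.77 in controls and 4.97, 4.60, 3.86 and 4.91 in TO lungs, so control 3 and TO 3 were again lowest. Within number 3, the replication genes had a median TO minus control of 0.50 with 4 of 42 lower in TO 3, whereas the 54 mitotic genes had a median of -0.16. In the other numbers too the replication median stood above the mitotic median, at 0.028 against -0.21 in number 1, -0.52 against -0.66 in number 2 and 0.18 against -0.00796 in number 4. The difference between the lists was not tested. Over 8 lungs the replication genes had a median of -0.067 with 29 of 42 below 0, and over 6 lungs -0.45 with 41 below 0. The direction turned with a block on the same 8 lungs, to 0.10 with 10 of 42 below 0 for the replicate number and to 0.046 for the specimen code. Mcm6, a helicase subunit, stood at 0.091 ± 0.38 and Rrm1, a ribonucleotide reductase subunit, at 0.061 ± 0.32. Fen1 had the largest value, -1.24 ± 1.08, from under 1 CPM in every lung, and 84.2% of its exon length overlaps other genes.

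The mean log2 CPM of 12 genes of MuvB and DREAM, the complexes that read CHR elements, ran from 5.37 to 5.64 over all 8 lungs. The 12 include Dyrk1a, a kinase gene and not a subunit. That of 15 genes of the anaphase-promoting complex, among them the coactivator gene Fzr1, ran from 5.66 to 6.03. The medians of TO against control for these lists were -0.058 and -0.065. Within the first list single genes went opposite ways. Rbl1, the pocket protein p107, read 68.0, 55.2, 19.3 and 48.9 CPM in controls and 62.1, 44.6, 25.7 and 53.9 CPM in TO lungs, lowest in control 3 and TO 3, while Rbl2, which encodes p130, was highest in control 3 (75.6 CPM). Rbbp4 stood at -0.13 ± 0.13, Dyrk1a at -0.067 ± 0.14 and Lin52 at -0.18 ± 0.21, and in the second list Anapc1 stood at -0.24 ± 0.15, Anapc5 at -0.045 ± 0.11 and Anapc15 at 0.30 ± 0.49. Among 11 inhibitors and brakes of the cycle the mean log2 CPM was 6.10 in control 3 and 5.87 to 5.89 in the other controls. In TO lungs it was 5.93 to 6.14, lowest in TO 3. Btg1, an antiproliferative gene, read 131, 157, 231 and 160 CPM in controls and 121, 190, 223 and 153 CPM in TO lungs, highest in control 3 and TO 3. Cdkn2c, a CDK inhibitor gene, was instead the lowest of each group in these lungs, at 8.81 and 9.87 CPM. The inhibitor genes Cdkn2d (12.9 and 13.4 CPM) and Cdkn1c (151 and 155 CPM) were also lowest in them. Cdkn1b was highest in them, at 276 and 150 CPM. Cdkn1a was the highest of the controls in control 3 (53.4 CPM) and read 38.9 CPM in TO 3, below TO 1 (44.9 CPM). Rbl1, Rbl2, Cdkn1a, Cdkn1b, Cdkn2c and Cdkn2d were chosen for mention after their values were seen. Cdkn1c, the inhibitor p57, stood at -0.079 ± 0.16 and Gas1 at 0.38 ± 0.21. No gene of these 5 lists passed the edgeR test in either direction, with 8 lungs or with 6. At an unadjusted p under 0.05 by edgeR, 1 of 46 other mitotic genes was lower with 8 lungs, where 2.35% of all genes passed in either direction. With 6 lungs 10 of 46 other mitotic and 4 of 42 replication genes were lower. In the same comparison 2 of 11 inhibitors or brakes were higher, and 5.14% of all genes passed in either direction.

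**Figure D5:**
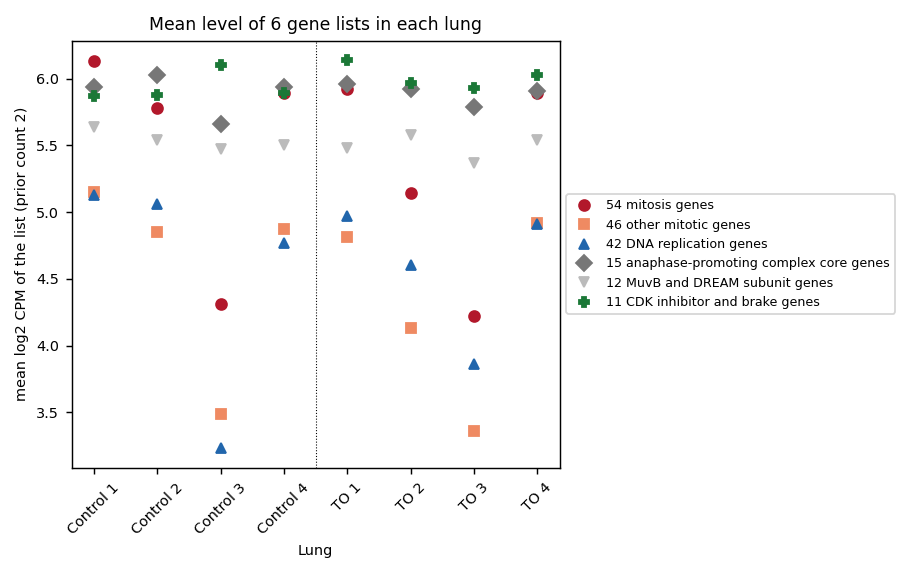
Mean log2 CPM (vertical axis, prior count 2) of 6 gene lists in each of the 8 lungs (horizontal axis), 1 symbol per list. The 54 mitosis genes, 46 other mitotic genes and 42 replication genes drop in control 3 and TO 3 (4.31 and 4.22 for the 54), while the means of the anaphase-promoting complex genes (5.66 to 6.03) and of the MuvB and DREAM genes (5.37 to 5.64) vary less.

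Markers of other cells were set beside the low lungs. Control 3 and TO 3 had cardiomyocyte sums of 5370 and 3617 CPM, while the sums were 4246 CPM in control 4 and 6305 CPM in TO 4 with mitotic levels near those of control 1, where the sum was 738 CPM. Erythroid markers summed to 4900 CPM in control 3, to 3781 CPM in TO 3 and to 2129 to 4688 CPM in the other lungs. Alveolar type 2 markers summed to 12414 and 16204 CPM in control 3 and TO 3, among 6725 to 20392 CPM in the others. Sftpc was the largest part of these sums (7510 and 9670 CPM). Alveolar type 1 markers summed to 3732 and 2760 CPM among 1280 to 3101 CPM. Of the alveolar markers Sftpd (287 and 322 CPM), Hopx (198 and 173 CPM) and Clic5 (1000 and 661 CPM) exceeded every other lung in both. The other alveolar markers did not. Pdpn was instead the lowest of each group in these lungs (25.2 and 21.5 CPM), and control 3 was the lowest control for Etv5 (213 CPM). These 5 names were chosen after their values were seen. Endothelial markers summed to 2071 and 1416 CPM among 1221 to 2136 CPM. Their part in the mitotic levels was not tested. Mitochondrial genes held 1.11% and 1.22% of counts in control 3 and TO 3, the lowest of the 8 lungs, against 1.40% to 2.33% in the others.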

How the data were processed

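The study's methods state that RNA of entire lungs was made into NexteraXT libraries, sequenced as paired ends and aligned to GRCm38 with STAR. What the authors deposited are counts of read pairs on each gene, not normalized, and the column for both strands together was used because half-and-half strand columns (49.9% to 50.1%) show unstranded libraries. Pairs that aligned to several places or fell on more than 1 gene (5.00% to 5.74%) were not counted by the authors. Ccnb1, Ccnb2, Kif4 and Kif22 have annotated pseudogene copies, so their counts are uncertain, as are those of the 7 members with over 10 percent of exon length shared with other genes. Versions of STAR and of the annotation are not given in the sources used here. Of 55385 IDs, 54487 equal those of GENCODE M21, which gave symbols and coordinates.

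The test covered any gene that reached 5 reads in no fewer than 3 libraries, in R 4.3.3 with edgeR 4.0.16 (quasi-likelihood test, TMM scaling, Benjamini-Hochberg over all genes, threshold 0.1), with all 8 libraries as the main comparison. CPM use TMM factors of 8 libraries, and log2 CPM a prior count of 2. The scripts were tested on simulated data. Alternatives were 6 libraries, each library left out, replicate blocks, RLE scaling, other filters, DESeq2 1.42.0 and limma-voom (limma 3.58.1). The genes named are Foxm1, Mybl2, the 2 most abundant genes of each role group, the gene of each with the largest fold change, and any that was called or did not overlap. The same was done in the other lists, and further names were chosen after their values were seen. The members and lists were chosen with earlier results of these data known. Precision is limited by depth in TO 1, and reads carry no molecular identifiers.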

Additional observations from a re-analysis of the deposited data

Results flagged for a closer look

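In each group of 4 lungs the highest or lowest value was compared with the rest by Dixon's gap test, over 96 groups in all, and 10 stood apart. Chance alone would pick about 1 in 20 groups if they were independent and normally distributed. These groups share lungs and in part genes, so the 10 cannot be set against that rate. For members, control 3 stood apart from the other controls in Troap (7.60 CPM) and in the mean log2 CPM of the mitotic entry genes (3.68), the spindle checkpoint genes (4.28) and the chromosomal passenger complex genes (3.77). It also stood apart in the inhibitors and brakes of the cycle, where it was the highest control (6.10). TO 3 did not stand apart by this test, since TO 2 lay between it and the others.

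The other 5 were sums of markers of other tissues, in TO 1, control 1 and control 2. TO 1 had skeletal muscle markers at 2836 CPM and thymocyte markers at 276 CPM. Control 1 had hepatocyte markers at 1360 CPM and stratified epithelium markers at 473 CPM. Control 2 had thymocyte markers at 2.83 CPM, which is above the other controls but low. The part of these tissues in the mitotic levels was not tested.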

How the results depend on the processing

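Among 572 values of 22 named genes under alternatives, 537 kept their direction and their side of the threshold, and 27 changed sign. The median of the 54 genes was below 0 under each alternative run. When each of the 8 libraries was left out in turn it ranged from -0.64 to -0.029, with 28 to 54 genes below 0 and 0 genes called. The log2 fold change then ranged from -0.65 to 0.023 for Foxm1, -0.38 to 0.21 for Mybl2, -0.53 to 0.16 for Birc5, -0.46 to 0.18 for Bub1b, -0.66 to 0.039 for Ccna2, -0.45 to 0.23 for Kif11, -0.6 to 0.00911 for Racgap1 and -0.38 to 0.25 for Top2a. When each of the 6 was left out, which was chosen after seeing the data, 52 genes were called without control 4 and 144, with 12 members and a median of -1.22, without TO 4, and Mybl2 stood at 0.00394 without TO 3. With DESeq2, 7 genes were called, and Kif11 (0.09) and Top2a (0.011) had the opposite sign. With limma-voom Mybl2 stood at 0.16. With DESeq2 and 6 libraries, chosen after seeing the data, 44 genes were called, 1 of them a member. The cause of these changes was not tested.

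Whether replicate numbers pair the lungs depended on the genes used. Deviations from the group means correlated within a number at 0.05, 0.13, 0.16 and 0.07 over the 22545 genes tested, and at 0.21, 0.34, 0.49 and 0.34 over the 9335 genes with 5 or more reads in every library. In the second set each lung correlated best with its own number except TO 1, whose best control was 4, of the same specimen code. This is a hint from the data and not from the design. With the replicate number as a block, 3 genes were called, the median of the members was -0.23 with 48 below 0, and Mybl2 stood at 0.18. With that block and 6 libraries, 219 genes and 1 member were called and Mybl2 stood at 0.16. Control 1 and TO 3 have no partner there, so only the lungs numbered 2 and 4 are compared. With the block and without number 1, chosen after seeing the data, 3 genes were called and Mybl2 stood at 0.33. With the specimen code as the replicate block, Mybl2 stood at 0.13. Depth limits TO 1, where 10 of the members had under 10 reads. Other prior counts changed no median within a replicate number by more than the spread between lungs, and in the shorter promoter window GCGC stood in 72.9% of the 48 windows of the members and 38.7% of all windows, GTAAACA in 0.0% and 1.62%, and AAACA in 25% and 27.2%.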
